A study of Mus musculus with 56 samples.

Results

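Arntl (also written Bmal1), Clock and Npas2 encode the activators of the circadian clock, and their RNA was followed in mouse calf muscle after cigarette smoke, after smoking had stopped, and in mice that never breathed smoke. The 3 genes were chosen from measured values of these same arrays, namely their levels after smoking had stopped, so the values of these 3 genes in the cessation mice are given here as a description with no test. Members were all probe sets annotated to 1 of the 3 genes alone, among 18193 genes with a probe set: 8 of the 45037 probe sets on the array, with 2 for Arntl, 4 for Clock and 2 for Npas2.

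The proteins ARNTL and CLOCK bind each other and, as a pair, switch on genes that carry the E-box sequence CACGTG. NPAS2 is a relative of CLOCK that can take its place as the partner of ARNTL. The period and cryptochrome proteins, made under the pair's control, block it in turn, and the nuclear receptor NR1D1 (REV-ERB alpha) represses Arntl, Clock and Npas2 through sites built around AGGTCA. Skeletal muscle runs this loop in its own cells, and in mice the RNA of the activators peaks at another time of day than that of the period genes.

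RNA came from the gastrocnemius, the large muscle of the calf, of female C57BL/6 mice. Smoke was mainstream cigarette smoke at 4%, given to the nose for 2 h a day on 5 days a week, and the sham exposure was air given in the same way. There were 2 cessation groups, named RA and FA, in which, per the treatment protocol, sham exposure for 12 weeks came after 12 weeks of smoke, smoke groups of 2, 12 and 24 weeks, air groups of 2, 12 and 24 weeks, and an untreated group taken at week 0. The sham air groups carry FA in their labels and no other group carries RA, and neither abbreviation is defined in the sources used here, so what the RA mice breathed in their last 12 weeks is known only from that protocol. Each group had 6 mice with 1 array each, except 12 weeks of smoke with 7 mice and 8 arrays, where both arrays of mouse G8 were averaged. This left 55 mice. The age of the mice and the hour of day at which muscle was taken are not given in the sources used here, and the hour bears on every level of a clock gene. Levels are log2 of the deposited intensity plus 16, with the SD between mice, and differences are on that scale with the SE of a limma model of all 9 groups.

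All 9 muscle markers were measured, and their mean level lay between 13.12 and 13.43 in every mouse, with both arrays of mouse G8 averaged. Lymphocyte RNA set 12 arrays apart: the mean of 9 lymphocyte markers was at least 8.53 in these and at most 6.50 in the other 44. The 12 arrays came from 3 RA mice, 1 FA mouse, 3 mice of 24 weeks of smoke, 2 of 12 weeks of smoke, 1 each of 24 and 2 weeks of air, and 1 untreated mouse. Within groups the levels of the 3 genes ran against the lymphocyte mean, with r = -0.52 for Arntl, -0.51 for Clock and -0.35 for Npas2 over 55 mice. Differences of the 3 genes without these arrays are given below wherever leaving them out moved a difference by over 1.5 times, and beside some others. In whole muscle, fewer cells of a type and less RNA per cell cannot be told apart.

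The promoters of the 3 genes are shown because NR1D1 and the activator pair are known to act through short sites in promoters. Each window is 300 bases long, from 250 bases before to 50 after a start site, in RefSeq on build GRCm38.p6. Of 6 windows for the 3 genes, these 3 are the windows that hold AGGTCA on either strand, for Arntl (chr7:113207261-113207560, plus strand) and Clock (chr5:76303453-76303752, minus strand), and the window of Npas2 (chr1:39194022-39194321, plus strand), which holds none. Capitals mark AGGTCA or, on the other strand, TGACCT.
Arntl: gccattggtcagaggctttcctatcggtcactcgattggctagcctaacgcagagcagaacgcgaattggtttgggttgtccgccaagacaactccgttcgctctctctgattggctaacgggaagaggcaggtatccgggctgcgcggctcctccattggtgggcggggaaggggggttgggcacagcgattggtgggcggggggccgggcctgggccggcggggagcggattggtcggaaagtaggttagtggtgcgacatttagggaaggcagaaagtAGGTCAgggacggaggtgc
Clock: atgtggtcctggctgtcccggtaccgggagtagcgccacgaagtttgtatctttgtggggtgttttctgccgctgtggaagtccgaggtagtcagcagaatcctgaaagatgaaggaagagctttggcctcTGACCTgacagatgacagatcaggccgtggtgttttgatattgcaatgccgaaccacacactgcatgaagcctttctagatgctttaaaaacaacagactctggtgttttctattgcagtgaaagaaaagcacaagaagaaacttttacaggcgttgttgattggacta
Npas2: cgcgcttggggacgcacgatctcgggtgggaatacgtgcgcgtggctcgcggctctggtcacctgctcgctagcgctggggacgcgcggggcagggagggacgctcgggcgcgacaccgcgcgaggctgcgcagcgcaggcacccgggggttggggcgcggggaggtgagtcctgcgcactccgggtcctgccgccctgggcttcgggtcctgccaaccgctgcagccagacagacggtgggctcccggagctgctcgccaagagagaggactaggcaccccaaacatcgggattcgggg
Counted from the start site, the match in Arntl began at base 31 and the match in Clock at base -119. AGGTCA was present in 16.3% of all 32851 promoter windows of this length. CACGTG was in none of the 6 windows, against 7.15% of all windows. A match is a run of letters and says nothing of binding, and the absence of one says only that these letters are not in the window.

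Probe set 1425099_a_at of Arntl had a mean level of 8.79 over all mice, above 75.7% of all probe sets. Its intensities ran between 203 and 1306. For Clock, 1418659_at was the brightest probe set, with a mean level of 10.27 and intensities between 793 and 1811. Npas2 was dimmer on the array: 1421037_at had a mean level of 6.58 and intensities between 25.97 and 460, so the added 16 shrinks its differences more than those of the other genes. These 3 probe sets stand for the genes below, also where groups are said to overlap or not. All 3 passed the filter on dim genes, a mean log2 level of 5.71. The second probe sets of Arntl (1457740_at, mean 5.62) and Npas2 (1421036_at, mean 5.40) lay under it.

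**Figure D1:**
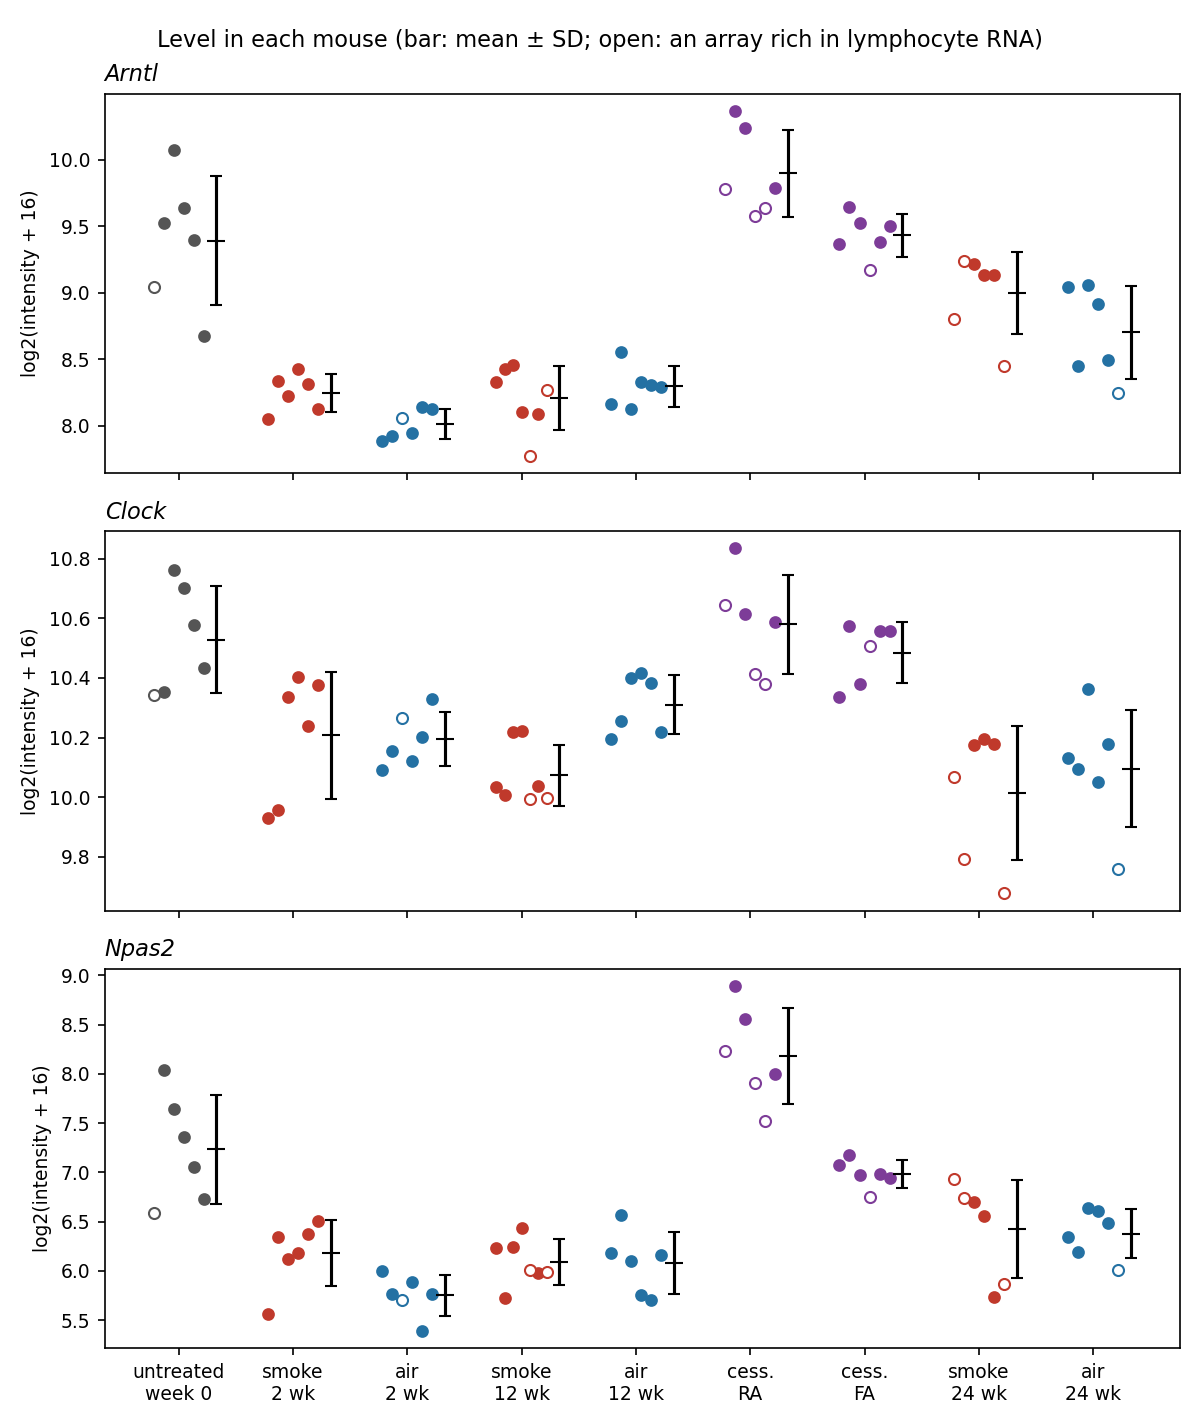
Level of Arntl, Clock and Npas2 (log2 of intensity plus 16) in each of the 55 mice, by group, with the mean and SD as bars. Open points are mice with a lymphocyte-rich array. RA mice had the highest group mean of all 3 genes, and for Arntl and Npas2 the mice of 2 weeks of air had the lowest.

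Mice that never breathed smoke showed a wide spread in the activators between groups. After 2 weeks of air, Arntl and Npas2 were far lower than in untreated mice. Arntl had a lowest, median and highest level of 7.89, 8.00 and 8.14 in mice of 2 weeks of air, against 8.67, 9.46 and 10.07 in untreated mice. No level of the air mice reached the lowest untreated mouse. Arntl fell by 1.38 ± 0.16 (SE, n = 6 each), an intensity 2.60-fold lower on this scale (limma, Benjamini-Hochberg adjusted p = 2.2e-07).

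Npas2, which can stand in for Clock, showed a drop of like size. Its lowest, median and highest levels were 5.39, 5.77 and 6.00 after 2 weeks of air, against 6.59, 7.20 and 8.04 in untreated mice. The groups were separate here too, and Npas2 fell by 1.48 ± 0.20 (limma adjusted p = 8.9e-06). Clock had levels of 10.09, 10.18 and 10.33 after 2 weeks of air, against 10.34, 10.51 and 10.76 in untreated mice. The highest air mouse lay just below the lowest untreated mouse, and the difference of -0.33 ± 0.09 missed the threshold (limma adjusted p = 0.089). It passed under 5 of 15 other settings, for example without the lymphocyte-rich arrays (-0.39, adjusted p = 0.0091) and with all 4 Clock probe sets averaged (-0.56, adjusted p = 0.0016). Without the lymphocyte-rich arrays the differences of Arntl and Npas2 were -1.46 and -1.60.

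The mean level of 6 endothelial markers lay between 9.03 and 9.31 after 2 weeks of air and between 9.39 and 9.54 in untreated mice, without overlap. The 6 slow fibre markers averaged 11.93 after 2 weeks of air and 12.21 in untreated mice, with overlap. The part of either in the clock gene differences was not tested.

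Thus 2 of the 3 genes passed in this comparison, where 0.518% of the 12347 genes tested did. Groups that did not overlap were seen for all 3 genes, and for 1.66% of all genes. Untreated mice differed from the air mice in week as well as in sham exposure, and the hour at which muscle was taken is not given. The parts of week, sham exposure and hour cannot be told apart. Untreated mice were also more spread out, with SDs for Arntl of 0.11 in mice of 2 weeks of air and 0.49 in untreated mice, while the model takes 1 spread for all groups.

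Among the air groups, Arntl was higher at the later times. Its mean level was 8.01 ± 0.11 at 2 weeks, 8.30 ± 0.15 at 12 weeks and 8.70 ± 0.35 at 24 weeks (SD, n = 6 each). All 6 mice at 24 weeks lay above the highest mouse at 2 weeks, with lowest, median and highest levels of 8.25, 8.71 and 9.06. Arntl rose by 0.69 ± 0.16 between 2 and 24 weeks (limma adjusted p = 0.043). This call was lost in 11 of the 12 fits that left out 1 mouse, where the adjusted p ran between 0.030 and 0.15, and under 7 of 15 other settings.

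Npas2 had mean levels of 5.75 ± 0.21, 6.08 ± 0.32 and 6.38 ± 0.25 after 2, 12 and 24 weeks of air. Its 24-week mice also lay above all 2-week mice, but the difference of 0.63 ± 0.20 did not pass (limma adjusted p = 0.24). It passed without the lymphocyte-rich arrays (0.69, adjusted p = 0.0498) and with array weights (0.66, adjusted p = 0.025). Clock followed another course, with mean levels of 10.19 ± 0.09, 10.31 ± 0.10 and 10.10 ± 0.20, and its 24-week level differed by -0.10 ± 0.09 from that at 2 weeks (adjusted p = 0.74), or by -0.02 without the lymphocyte-rich arrays.

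Of all genes, 0.219% passed and 1.33% did not overlap between 24 and 2 weeks of air. None of the 3 genes passed or separated between 12 and 2 weeks, where the differences were 0.28 ± 0.16 for Arntl, 0.12 ± 0.09 for Clock and 0.33 ± 0.20 for Npas2, with 0.0081% of genes called and 1.26% separate. None passed between 24 and 12 weeks either, where 0.0324% of genes were called. Their differences there were 0.41 ± 0.16, -0.21 ± 0.09 and 0.30 ± 0.20 for Arntl, Clock and Npas2.

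**Figure D2:**
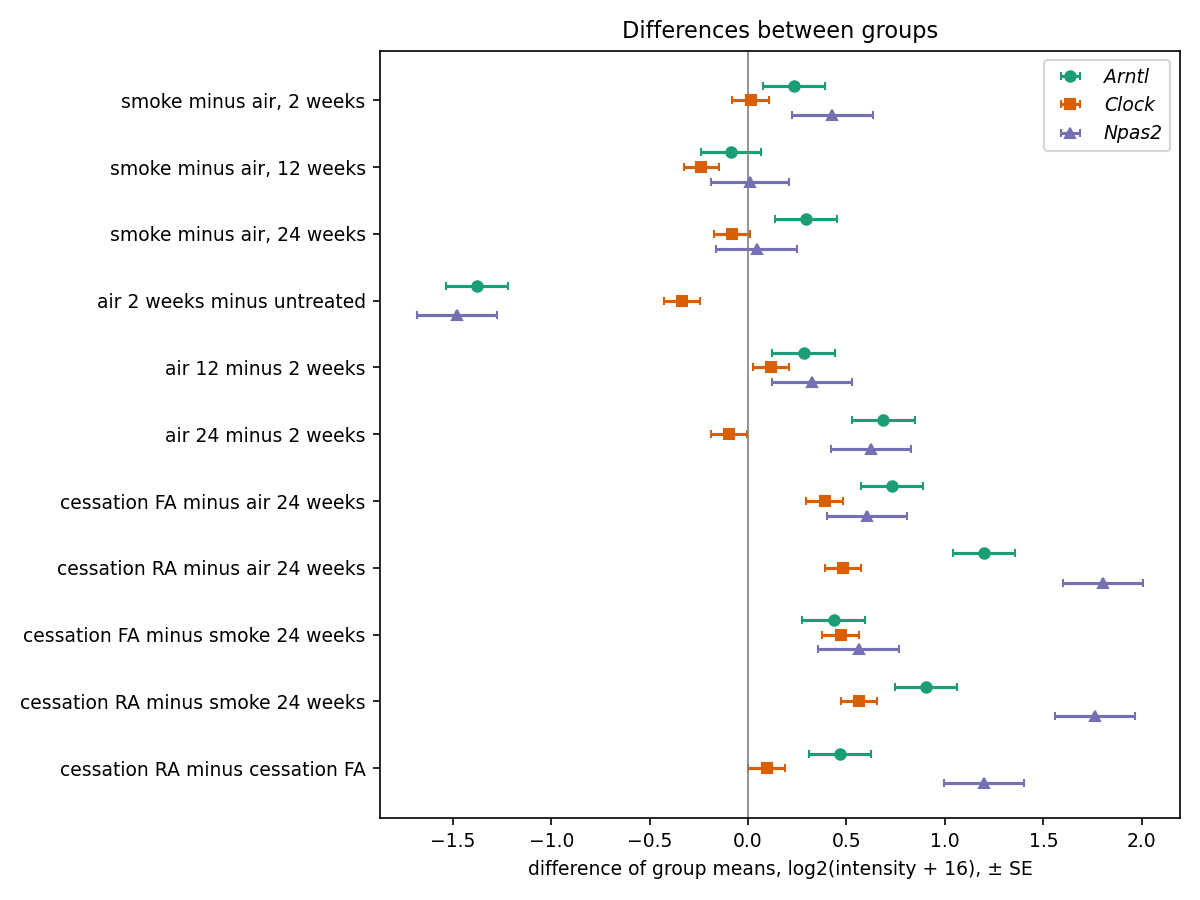
Differences of group means for the 3 genes in 11 comparisons (log2 of intensity plus 16, bars are the SE of the limma model). All 3 genes had lower means after 2 weeks of air than in untreated mice, and after 24 weeks of air than in RA mice. The signs of these differences are opposite because air is the group subtracted only in the RA comparison. The smoke differences lie between -0.24 and 0.43.

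Smoke itself did not move the 3 genes past the threshold at any time. At 2 weeks Arntl had lowest, median and highest levels of 8.05, 8.27 and 8.43 in smoke mice, against 7.89, 8.00 and 8.14 in air mice. Of the 6 smoke mice, 4 lay above every air mouse, and the difference was 0.23 ± 0.16 (95% interval -0.08 to 0.55). For Npas2 the levels were 5.57, 6.26 and 6.50 in smoke mice, against 5.39, 5.77 and 6.00 in air mice. Here 5 of 6 smoke mice lay above every air mouse, with a difference of 0.43 ± 0.20 (interval 0.02 to 0.84). Clock differed by 0.01 ± 0.09, or by 0.03 without the lymphocyte-rich arrays. Its dimmest probe set, 1439314_at, gave 0.57 ± 0.19, with overlap between the groups. The limma adjusted p was 0.998 for each gene, and 0% of all genes passed: 0 of 12347 were called by limma, and 255 had an unadjusted p under 0.05.

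At 12 weeks Clock had the largest difference of the 3 genes, relative to its SE. Its lowest, median and highest levels were 9.99, 10.03 and 10.22 in 7 smoke mice, against 10.19, 10.32 and 10.42 in 6 air mice. Of the smoke mice, 5 lay below every air mouse, and the difference was -0.24 ± 0.09 (interval -0.42 to -0.06), with a limma adjusted p of 0.999. Without the lymphocyte-rich arrays it was -0.17 ± 0.08. The other Clock probe sets gave -0.24 ± 0.13 (1418660_at), -0.06 ± 0.11 (1435775_at) and 0.25 ± 0.18 (1439314_at), so they did not all show this difference. Arntl had levels of 7.78, 8.27 and 8.46 in smoke mice, against 8.13, 8.30 and 8.56 in air mice, and differed by -0.09 ± 0.15. Npas2 had levels of 5.73, 6.01 and 6.43 in smoke mice, against 5.71, 6.13 and 6.57 in air mice, and differed by 0.01 ± 0.20. Both genes overlapped between smoke and air, and without the lymphocyte-rich arrays the differences were -0.02 for Arntl and 0.04 for Npas2. In this comparison 0.0081% of all genes passed.

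At 24 weeks 3 of the 6 smoke mice and 1 of the 6 air mice had lymphocyte-rich arrays, and the part of this in the values was not tested. Arntl had lowest, median and highest levels of 8.45, 9.13 and 9.24 in smoke mice, against 8.25, 8.71 and 9.06 in air mice. The difference of 0.29 ± 0.16 (interval -0.02 to 0.61) did not pass (limma adjusted p = 0.23), and without the lymphocyte-rich arrays it was 0.37 ± 0.17 (adjusted p = 0.22). Clock had levels of 9.68, 10.12 and 10.20 in smoke mice, against 9.76, 10.11 and 10.36 in air mice. Its difference of -0.08 ± 0.09 turned to 0.02 ± 0.10 without those arrays. In Clock the 3 lymphocyte-rich smoke mice were the 3 lowest of their group, between 9.68 and 10.07, and the other 3 lay between 10.18 and 10.20.

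Npas2 had levels of 5.74, 6.63 and 6.93 in mice of 24 weeks of smoke, against 6.01, 6.42 and 6.64 in air mice. The smoke mice reached both above and below the air mice, with a difference of 0.04 ± 0.20 that turned to -0.12 ± 0.23 without the lymphocyte-rich arrays. At 24 weeks 0.47% of all genes passed. The shares of genes without overlap between smoke and air were 0.381% at 2 weeks, 0.0972% at 12 weeks and 0.713% at 24 weeks, and none of the 3 genes was among them.

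Averaged over the 3 times, smoke minus air was 0.15 ± 0.09 for Arntl, -0.10 ± 0.05 for Clock and 0.16 ± 0.12 for Npas2, with limma adjusted p values of 0.62, 0.56 and 0.66 where 0.0324% of all genes passed. With the lymphocyte-rich arrays left out the averages were 0.20 for Arntl, -0.04 for Clock and 0.11 for Npas2. The other probe sets, not tested, averaged 0.22 ± 0.08 for Arntl (1457740_at) and 0.21 ± 0.09 for Npas2 (1421036_at). For Clock they averaged -0.04 ± 0.07 (1418660_at), -0.02 ± 0.06 (1435775_at) and 0.35 ± 0.11 (1439314_at). The dimmest Clock probe set thus went the other way from the brightest. The smoke effect did not differ past the threshold between 24 and 2 weeks, with adjusted p values of 0.89 for Arntl, 0.67 for Clock and 0.42 for Npas2 and 0.0324% of genes called. Between 24 and 12 weeks the adjusted p values were 0.88 for Arntl and Clock and 0.98 for Npas2. There 0% of genes were called, 0 by limma, with 558 at an unadjusted p under 0.05. The largest of these 6 differences in size was -0.39 ± 0.29, for Npas2 between 24 and 2 weeks. When those arrays were left out, the change between 24 and 2 weeks was 0.12 for Arntl, against 0.06 with them, and -0.0072 for Clock, against -0.09. The change between 24 and 12 weeks for Npas2 was -0.17, against 0.03.

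The cessation mice, whose values chose the genes, had the activators high. In RA mice Arntl had lowest, median and highest levels of 9.58, 9.79 and 10.37, against 8.25, 8.71 and 9.06 after 24 weeks of air. Npas2 had 7.52, 8.12 and 8.89 in RA mice, against 6.01, 6.42 and 6.64 in air mice. Clock had 10.38, 10.60 and 10.83 in RA mice, against 9.76, 10.11 and 10.36 in air mice. Every RA mouse lay above every air mouse in all 3 genes, on the probe sets that stand for them. The groups overlapped on Arntl 1457740_at, Clock 1418660_at and 1439314_at, and Npas2 1421036_at. The differences were 1.20 ± 0.16 for Arntl, 0.48 ± 0.09 for Clock and 1.80 ± 0.20 for Npas2, that is 2.29-fold, 1.40-fold and 3.49-fold.

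Of the 6 RA mice 3 had lymphocyte-rich arrays, and these were not the highest mice: their Npas2 levels lay between 7.52 and 8.23, and those of the other 3 between 8.00 and 8.89. Without the lymphocyte-rich arrays the RA differences from 24 weeks of air were 1.34 for Arntl, 0.52 for Clock and 2.03 for Npas2, over 3 RA and 5 air mice. Among all genes 1.76% passed in this comparison and 2.18% did not overlap.

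FA mice stood closer to the air mice, and lay close together. Arntl had lowest, median and highest levels of 9.17, 9.44 and 9.64 in FA mice, against 8.25, 8.71 and 9.06 after 24 weeks of air. For Npas2 they were 6.75, 6.98 and 7.17 in FA mice, against 6.01, 6.42 and 6.64 in air mice. In both genes every FA mouse lay above every air mouse. For Clock, with 10.34, 10.53 and 10.57 in FA mice against 9.76, 10.11 and 10.36 in air mice, 5 of 6 did. The differences were 0.73 ± 0.16, 0.39 ± 0.09 and 0.60 ± 0.20 for Arntl, Clock and Npas2. Without the lymphocyte-rich arrays they were 0.69, 0.32 and 0.58. Of all genes 0.081% passed and 0.802% did not overlap.

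Set against 24 weeks of smoke, RA mice differed by 0.90 ± 0.16 in Arntl, 0.56 ± 0.09 in Clock and 1.76 ± 0.20 in Npas2. No gene overlapped on the probe set that stands for it. The groups overlapped on Arntl 1457740_at, Clock 1418660_at and 1439314_at, and Npas2 1421036_at. FA mice differed from the same smoke mice by 0.43 ± 0.16 in Arntl, 0.47 ± 0.09 in Clock and 0.56 ± 0.20 in Npas2, and only Clock was free of overlap. Clock in that comparison was 0.30 without the lymphocyte-rich arrays, over 5 FA and 3 smoke mice. These comparisons share their smoke mice. Among all genes 2.34% passed and 0.664% did not overlap for RA, and 3.55% passed and 1.3% did not overlap for FA.

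The mice of 12 weeks of smoke had the same smoke exposure as the cessation mice and were taken at its end. RA mice differed from them by 1.69 ± 0.15 in Arntl, 0.51 ± 0.09 in Clock and 2.10 ± 0.20 in Npas2, and FA mice by 1.22 ± 0.15, 0.41 ± 0.09 and 0.90 ± 0.20. In each of these every cessation mouse lay above every smoke mouse, on the probe sets that stand for the genes. The same absence of overlap was seen for 1.64% of all genes with RA and 0.672% with FA. Both arms overlapped with the smoke mice on Arntl 1457740_at, Clock 1439314_at and Npas2 1421036_at. On Npas2 1421036_at the differences were 0.09 ± 0.15 for RA and 0.04 ± 0.15 for FA. The shares of all genes called were 1.95% for RA and 0.34% for FA. Total time in the study differed here as well, 24 weeks for the cessation mice and 12 weeks for the smoke mice.

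Between the cessation arms Npas2 differed most. RA minus FA was 1.20 ± 0.20 for Npas2, 0.47 ± 0.16 for Arntl and 0.09 ± 0.09 for Clock. Lymphocyte-rich arrays came from 3 RA mice and 1 FA mouse, and without them the differences were 1.45, 0.65 and 0.20. All 6 RA mice lay above every FA mouse in Npas2, and 4 of 6 did in Arntl and in Clock. On Npas2 1421036_at the arms overlapped, with a difference of 0.05 ± 0.16. Of all genes 0.0243% passed between the arms and 0.543% did not overlap.

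Ordered by mean level, RA mice came first for all 3 genes. For Arntl the order after RA (9.90 ± 0.33) was FA (9.43 ± 0.16), untreated (9.39 ± 0.49), 24 weeks of smoke (8.997 ± 0.31), 24 weeks of air (8.70 ± 0.35), 12 weeks of air (8.30 ± 0.15), 2 weeks of smoke (8.25 ± 0.14), 12 weeks of smoke (8.21 ± 0.24) and 2 weeks of air (8.01 ± 0.11). For Npas2, RA (8.18 ± 0.49) was followed by untreated (7.23 ± 0.55), FA (6.99 ± 0.14), 24 weeks of smoke (6.42 ± 0.50) and 24 weeks of air (6.38 ± 0.25), and 2 weeks of air (5.75 ± 0.21) came last. For Clock the span was narrower: RA (10.58 ± 0.17), untreated (10.53 ± 0.18) and FA (10.49 ± 0.10) led, and 24 weeks of smoke (10.02 ± 0.22) came last. The mice of neighbouring groups overlapped at every step of all 3 orders. Untreated mice, which had breathed no smoke, came next to the FA mice in all 3 orders.

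The probe sets of a gene agreed to different degrees. The 3 brighter Clock probe sets followed each other within groups, with r between 0.71 and 0.76 over 55 mice, and their 9 group means correlated at 0.90 to 0.97. The dimmest, 1439314_at, followed them less, at 0.20 to 0.42 within groups. Over 44 mice without the lymphocyte-rich arrays its r with the others was 0.03 to 0.18, and that among the 3 brighter probe sets 0.62 to 0.65. These correlations are over probe sets read from the same arrays, so they share whatever made 1 array bright or dim.

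All 4 Clock probe sets were lower after 2 weeks of air than in untreated mice, by -0.33 ± 0.09 (1418659_at), -0.67 ± 0.13 (1418660_at), -0.59 ± 0.11 (1435775_at) and -0.66 ± 0.19 (1439314_at). The brightest probe set, which stands for the gene, thus gave the smallest difference. Between RA and 24 weeks of air the same probe sets gave 0.48 ± 0.09, 0.65 ± 0.13, 0.66 ± 0.11 and 0.52 ± 0.19. For FA they gave 0.39 ± 0.09, 0.52 ± 0.13, 0.42 ± 0.11 and 0.03 ± 0.19, so the dimmest did not show the FA difference.

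The 2 Arntl probe sets correlated at 0.56 within groups and at 0.76 over the 9 group means. The dim one, 1457740_at, gave smaller differences: 0.31 ± 0.13 for RA against 24 weeks of air, 0.08 ± 0.13 for FA, and -0.37 ± 0.13 for 2 weeks of air against untreated mice. The 2 Npas2 probe sets did not follow each other from mouse to mouse, with r = -0.01 within groups and 0.66 over group means. The dim one, 1421036_at, gave 0.31 ± 0.16 for RA, 0.26 ± 0.16 for FA and -0.22 ± 0.16 for 2 weeks of air against untreated. The large Npas2 differences therefore rest on 1421037_at alone.

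**Figure D3:**
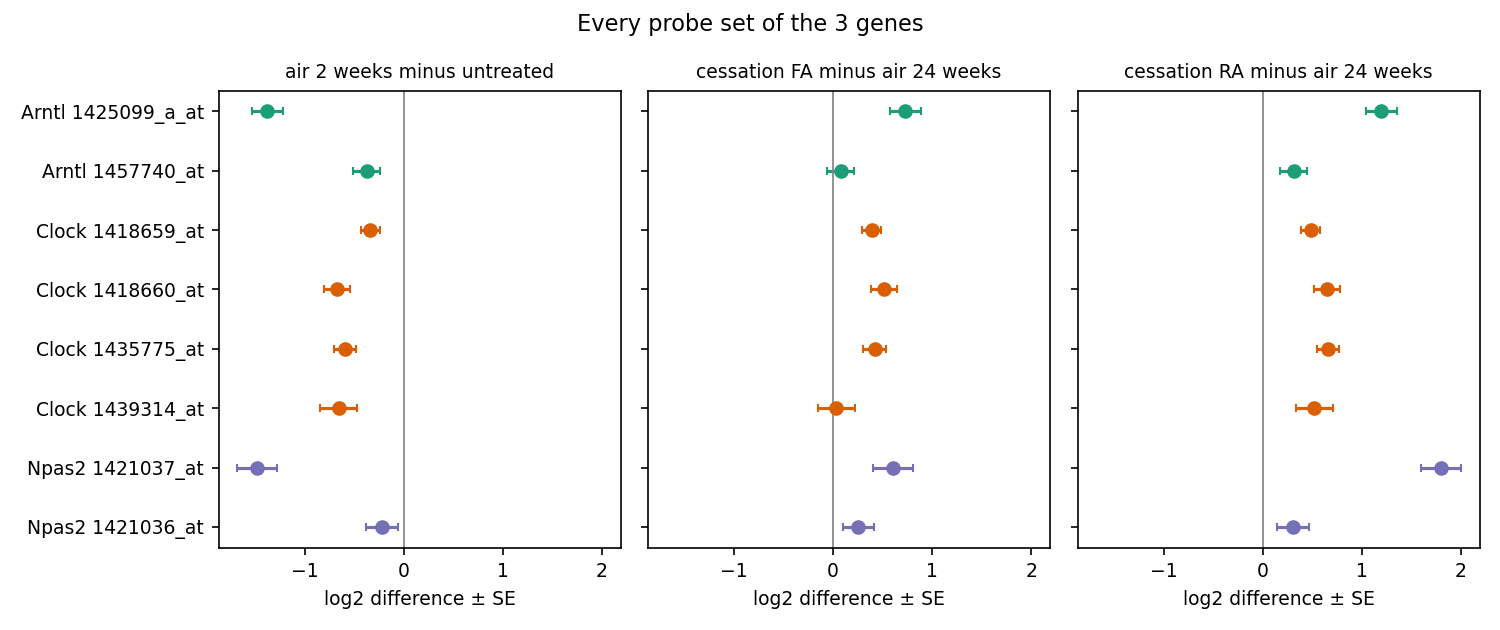
Differences of group means (log2 of intensity plus 16, bars are the SE) for all 8 probe sets in 3 comparisons. Every probe set lies below 0 between 2 weeks of air and untreated mice and above 0 between RA and 24 weeks of air, with smaller differences in the dim probe sets of Arntl and Npas2.

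From mouse to mouse within groups, Arntl and Npas2 moved together with r = 0.55 over 55 mice (0.45 over 44 mice without the lymphocyte-rich arrays). Arntl and Clock had r = 0.54 (0.37), and Clock and Npas2 0.36 (0.17). All 3 values were lower without those arrays. The output gene Dbp, a transcription factor switched on by the activator pair, ran against Arntl within groups, with r = -0.46 (-0.65 without those arrays). The repressor Per2 had r = -0.30 (-0.66) with Arntl, -0.24 (-0.33) with Npas2 and 0.16 (0.01) with Clock. Per1 and Ciart, the only other listed repressors set against Arntl in this way, followed it less, with r = 0.08 (0.07) and -0.06 (-0.17). Nr1d1, which represses Arntl, ran with it at 0.44 (0.29).

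The rest of the clock was read from 28 listed genes, of which 24 were measured: 8 repressors, 3 nuclear receptors, 9 output genes and 4 kinases or ligases. Between 2 weeks of air and untreated mice, 3 of the 24 rose and 1 fell, where 0.518% of all genes passed. The median difference of the 24 was 0.15 and that of all genes 0.01. Per2, a repressor of the activator pair, rose by 1.22 ± 0.20 (limma adjusted p = 0.00031), with levels between 9.77 and 10.11 after 2 weeks of air and between 8.27 and 9.66 in untreated mice. The cell cycle kinase Wee1 rose by 0.75 ± 0.10 (adjusted p = 3.9e-06) and the transcription factor Hlf by 0.54 ± 0.12 (adjusted p = 0.015). Cdkn1a, an inhibitor of the cell cycle, fell by 0.88 ± 0.20 (adjusted p = 0.015). Nr1d1, which represses Arntl, lay between 9.66 and 9.95 after 2 weeks of air and between 10.02 and 10.65 in untreated mice. Groups without overlap were seen for 1.66% of all genes. It did not pass with all mice, but fell in both settings that follow (limma adjusted p = 0.0021 and 0.0022). These genes were named after their values were seen. With the lymphocyte-rich arrays left out, or with mouse 6 of 24 weeks of smoke left out, 5 rose and 2 fell. That mouse is in neither group here and bears only on the spread shared by all 9 groups. Shares of all genes called are not given for these settings. Over the 15 alternatives 57 to 664 of all genes were called, and the fit without that mouse is not among the 15. The added calls are therefore no evidence about the clock genes.

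The clock lists were drawn up with earlier results of the cessation comparisons known, so the calls that follow for RA and FA mice are no independent evidence about the activators. Between RA mice and 24 weeks of air, 10 of the 24 fell and 1 rose, with a median difference of -0.30 against -0.01 over all genes and 1.76% of genes called. Without the lymphocyte-rich arrays 11 fell and 2 rose, and without mouse 6 of 24 weeks of smoke 12 fell and 1 rose. That mouse is in neither group here and bears only on the shared spread. Shares of all genes called are not given for these settings. The 15 alternatives, which do not hold the fit without that mouse, called 175 to 906 genes. The added calls are therefore no evidence about the clock genes. Of the 8 repressors 4 fell. Per1 fell by 1.93 ± 0.22 (limma adjusted p = 4.7e-08), Per2 fell by 1.58 ± 0.20 (adjusted p = 1.0e-06), Ciart fell by 1.41 ± 0.24 and Per3 fell by 0.83 ± 0.14. Per1, a partner of Per2 in repression, lay between 7.10 and 7.97 in RA mice and between 9.13 and 9.78 in air mice, so the groups were far apart. Of the 9 output genes 6 fell, with differences of -0.90 ± 0.10 for Wee1, -0.69 ± 0.11 for Noct, -0.61 ± 0.12 for Hlf and -0.34 ± 0.06 for the deubiquitinase Usp2 among them. The repressor of the activators, Nr1d1, rose by 0.66 ± 0.16 (adjusted p = 0.015), to levels between 10.40 and 10.78 in RA mice, against 9.63 to 10.16 in air mice.

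Between FA mice and 24 weeks of air, 2 of the 24 fell, with differences of -0.49 ± 0.11 for Noct and -0.48 ± 0.10 for Wee1, both with a limma adjusted p of 0.039, where 0.081% of all genes passed. Without the lymphocyte-rich arrays, or without mouse 6 of 24 weeks of smoke, 4 fell. Here too that mouse bears only on the shared spread. Shares of all genes called are not given for these settings. The 15 alternatives, which do not hold the fit without that mouse, called 0 to 45 genes. The added calls are therefore no evidence about the clock genes. Per1 and Per2 differed there by -0.90 ± 0.22 (adjusted p = 0.080) and -0.71 ± 0.20 (adjusted p = 0.21). The 24 genes had a median difference of -0.18, against -0.02 over all genes. The comparisons of RA and of FA share the same 6 air mice.

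In smoke against air none of the 24 passed at 2 or 12 weeks, and 2 fell at 24 weeks, where 0.47% of all genes passed. Nr1d1 fell by 1.13 ± 0.16 (limma adjusted p = 4.6e-05), with levels between 7.63 and 9.27 in smoke mice and between 9.63 and 10.16 in air mice. Dbp fell by 0.70 ± 0.14 (adjusted p = 0.0079). The median of the 24 was -0.25, against -0.03 over all genes. With the lymphocyte-rich arrays left out, or with smoke mouse 6 left out, 1 gene passed, Nr1d1, with differences of -1.06 and -0.90. Genes called among all tested ran from 0 to 567 over the 15 alternatives and from 4 to 547 with 1 mouse left out. In the same mice Arntl, Clock and Npas2 differed by 0.29 ± 0.16, -0.08 ± 0.09 and 0.04 ± 0.20. None of the 3 passed, which does not show that they were unchanged, and a link to Nr1d1 was not tested.

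**Figure D4:**
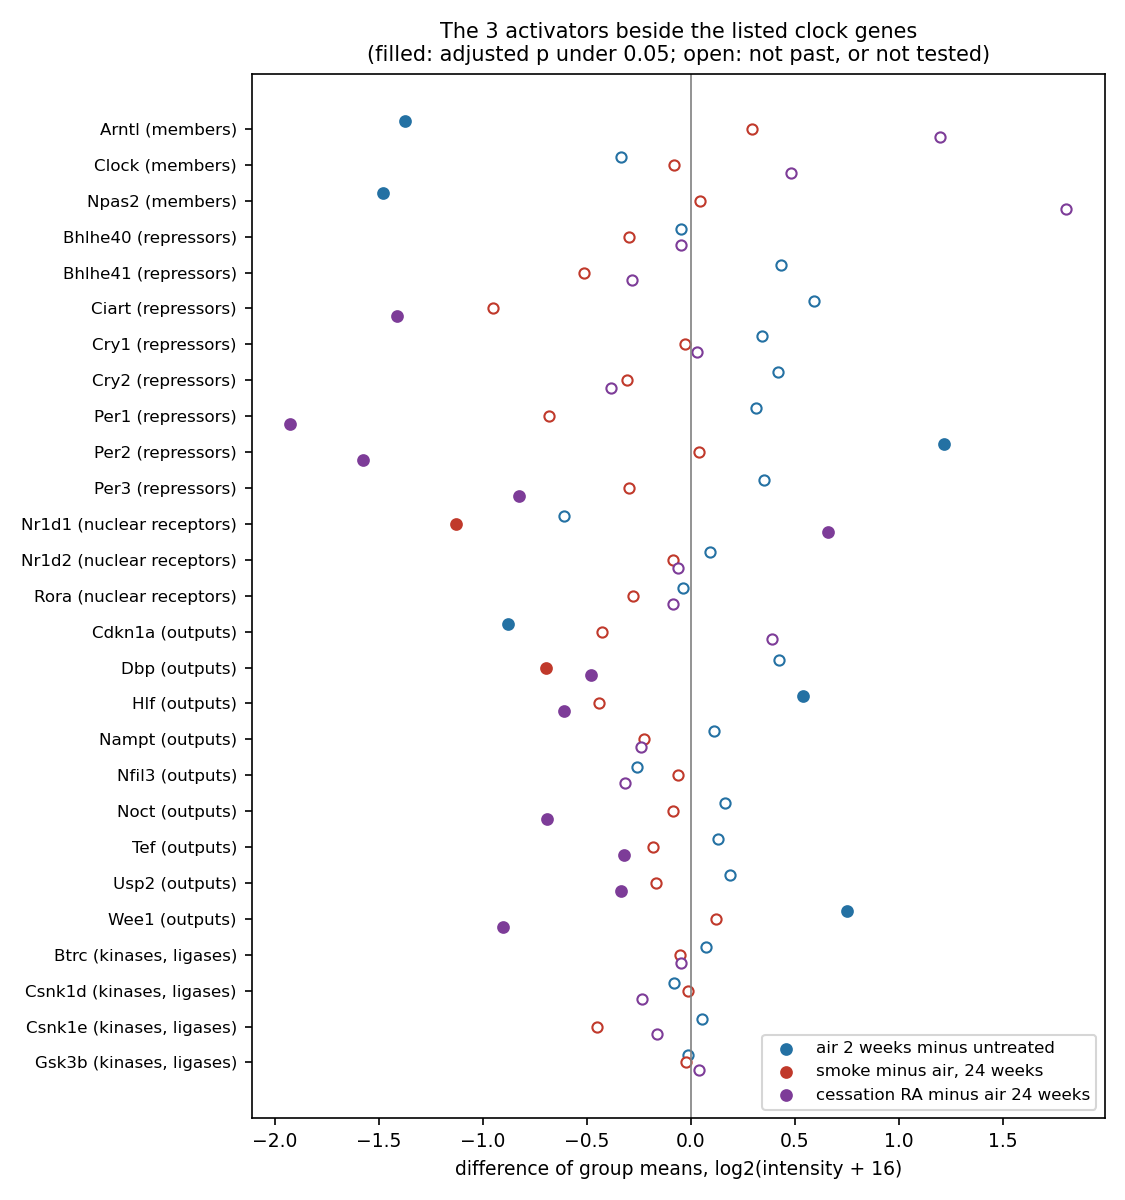
Differences of group means (log2 of intensity plus 16) for the 3 activators and the 24 measured clock genes in 3 comparisons. Filled points passed an adjusted p under 0.05, and open points did not or, for the activators in RA mice, were not tested. Per2, Hlf and Wee1 lie on the opposite side of 0 from Arntl and Npas2 in both the air and the RA comparison. Nr1d1 and Cdkn1a lie on the same side as Arntl and Npas2 in both.

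Among all genes tested, those whose levels followed each activator most closely within groups were found over 55 mice, as a description. For Clock the highest r values were those of Pafah1b1 (0.80), Sppl2a (0.80), Mbnl2 (0.77), Ube2q2 (0.77) and Bpnt2 (0.77), and over 44 mice without the lymphocyte-rich arrays these 5 were between 0.67 and 0.75. The lowest were those of Slc46a3 (-0.79), Csnk1d (-0.79), Uckl1 (-0.78), Dad1 (-0.78) and Taf10 (-0.77). Csnk1d, a kinase that acts on the period proteins, is the clock list gene among them, and its r without those arrays was -0.72.

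For Arntl the highest were Otub2 (0.68), Nkx2-1 (0.68), Rims4 (0.67), Leo1 (0.66) and Dhx32 (0.64), which were between 0.38 and 0.57 without the lymphocyte-rich arrays. The lowest were Tspan4 (-0.75), Sh3kbp1 (-0.72), Tfe3 (-0.71), Mfsd12 (-0.68) and Ebp (-0.68). With group differences kept, r with Arntl was -0.81 for Tspan4 but 0.17 for Otub2, -0.02 for Nkx2-1, -0.08 for Tfe3 and -0.05 for Mfsd12. For Npas2 the highest were Prrc1 (0.62), Herc3 (0.58), Efr3b (0.57), Col8a1 (0.57) and Lrrc52 (0.57), and the lowest Scd1 (-0.58), Mup5 (-0.55), Napg (-0.55), Bicdl1 (-0.55) and Slc10a7 (-0.55). No gene of the clock lists was among the 10 of Arntl or the 10 of Npas2.

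Mouse G8, of 12 weeks of smoke, was measured on 2 arrays with lymphocyte means of 4.72 and 10.33. Arntl was 8.25 on the first and 8.30 on the second, Clock 10.33 and 9.66, and Npas2 6.12 and 5.86. Clock thus differed by more between these arrays of 1 mouse than between any smoke group and its air group, while Arntl hardly differed.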

How the data were processed

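Total RNA was amplified, labelled with biotin and hybridised by the authors, per the labels' protocols. The deposited values are intensities, 1 per probe set and array on a linear scale; the sources used here do not state how the authors summarised and normalised the probes. Values ran from -20.0 to 15890, 0.46% were below 0, and array medians were 62.5 to 77.5. The number of arrays limits the precision.

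Values were floored at -15, 16 was added and log2 was taken from the deposited intensities, with no further scaling. Probe sets were named from the platform annotation, with symbols updated through a RefSeq table (GRCm38.p6): 34945 had 1 symbol, and 932 with several and 9160 with none were left out. The probe set of highest mean stood for each gene, and genes below the 40th percentile of probe set means were left out, which left 12347. A single limma model held 9 groups and 55 mice, with 46 residual degrees of freedom. The threshold was an adjusted p of 0.05 (Benjamini-Hochberg), and every adjusted p in the text is from limma's moderated test. Replicates are separate mice, per the labels. Arrays were called lymphocyte-rich above a marker mean of 8.5. Correlations within groups used levels with the group means taken off. Those over group means used the means of the 9 groups, and those with group differences kept used the levels as they were.

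The members, the gene lists and the tests were chosen with earlier results of these data known. Named were the 3 members, clock list genes that passed in smoke against air or had the lowest p in a cessation comparison, and the 5 genes of highest and lowest r per member. Slow fibre, adipocyte, endothelial and macrophage markers were also measured, and their group means spanned 11.93 to 12.53, 10.12 to 11.16, 9.07 to 9.46 and 8.09 to 9.05. Alternatives were other pseudocounts, no filter, quantile normalization, every probe set or their mean, robust moderation, array weights, the compared groups alone, 1 array of mouse G8, arrays of the main identifier run, 2 covariates, no lymphocyte-rich arrays, and each mouse left out. Clock list counts without the lymphocyte-rich arrays, and without mouse 6 of 24 weeks of smoke, were added after the data were seen. The model was run on simulated data in which genes were independent and each had the same spread in all groups. That run therefore does not bear on unequal spreads or on lymphocyte-rich arrays. Fits were made with limma 3.58.1 in R 4.3.3, and figures were drawn with matplotlib 3.10.9 in Python 3.11.15.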

Additional observations from a re-analysis of the deposited data

Results flagged for a closer look

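Every probe set of the 3 genes was checked in all 9 groups for a mouse far from the others, by the gap to the nearest mouse as a share of the group's range. Of 72 groups 5 held such a mouse, and chance gives about 1 in 20.

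Replicate 6 of 24 weeks of smoke had a level of 7.51 on the Clock probe set 1435775_at, with the nearest mouse at 8.19, and replicate 2 of that group had 5.98 on 1439314_at, with the nearest at 6.52. Replicate 6 of 24 weeks of air had 7.64 on the Clock probe set 1418660_at, with the nearest at 8.12. These 3 mice had lymphocyte-rich arrays, and the part of this in their values was not tested.

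The other 2 lay on dim probe sets and were high. Replicate 4 of 2 weeks of air had 5.86 on the Arntl probe set 1457740_at, with the nearest mouse at 5.47. Untreated replicate 6 had 5.92 on the Npas2 probe set 1421036_at, with the nearest at 5.48. Neither came from a lymphocyte-rich array.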

How the results depend on the processing

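The 51 differences of the 3 genes were recomputed under 15 alternatives each, 765 values in all. Of these, 715 kept their direction, their side of the threshold and, where no test was made, a value within 1 SD. All calls for Arntl and Npas2 between 2 weeks of air and untreated mice held, with ranges of -1.46 to -0.87 and -1.79 to -0.85 and adjusted p up to 0.013 and 0.016.

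The difference of Arntl between 24 and 2 weeks of air missed the threshold with the compared groups alone, every probe set tested or no filter (0.69 each), the mean of probe sets (0.40), a pseudocount of 64 (0.60), quantile normalization (0.67) and title number as covariate (0.71). Clock between 2 weeks of air and untreated mice passed with array weights (-0.37), the lymphocyte mean as covariate (-0.35), the mean of probe sets (-0.56), title number as covariate (-0.35) and no lymphocyte-rich arrays (-0.39). Npas2 between 24 and 2 weeks of air passed with array weights (0.66) and without lymphocyte-rich arrays (0.69).

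The mean of probe sets brings in dim probe sets by construction, and the cessation differences of Arntl and Npas2 were smaller under it. For Arntl they became 0.40 (FA minus 24 weeks of air), 0.64 (FA minus 12 weeks of smoke), 0.16 (FA minus 24 weeks of smoke), 0.75 (RA minus 24 weeks of air), 0.99 (RA minus 12 weeks of smoke) and 0.51 (RA minus 24 weeks of smoke). For Npas2 they became 0.47 (FA minus 12 weeks of smoke), 1.06, 1.09 and 0.91 (RA minus 24 weeks of air, 12 and 24 weeks of smoke) and 0.63 (RA minus FA), while Clock in RA minus 12 weeks of smoke became larger, 0.66. A pseudocount of 64 gave 1.37, 1.55 and 1.33 for Npas2 in RA minus 24 weeks of air, 12 and 24 weeks of smoke. Without lymphocyte-rich arrays Clock was 0.30 in FA minus 24 weeks of smoke and Npas2 2.15 in RA minus 24 weeks of smoke.

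The following differences changed sign, none of them called in either setting, and the cause was not tested. In smoke minus air, Arntl at 12 weeks became 0.011 (lymphocyte covariate) and 0.063 (mean of probe sets). Clock became -0.026 (identifiers outside the main run left out) and -0.017 (lymphocyte covariate) at 2 weeks, and 0.036 (array weights), 0.0010 (mean of probe sets) and 0.021 (no lymphocyte-rich arrays) at 24 weeks, and 0.047 averaged over time (mean of probe sets). Npas2 became -0.013 (quantile normalization) and -0.0096 (second G8 array only) at 12 weeks, and -0.068 (array weights) and -0.12 (no lymphocyte-rich arrays) at 24 weeks. In the smoke effect at 24 minus 2 weeks, Arntl became -0.0061 (mean of probe sets) and Clock 0.012 (array weights) and 0.017 (lymphocyte covariate). At 24 minus 12 weeks Npas2 became -0.16 (array weights) and -0.17 (no lymphocyte-rich arrays). With the mean of probe sets, Clock in air became 0.010 (24 minus 12 weeks) and 0.093 (24 minus 2 weeks).

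With each mouse left out in turn, 738 of 771 values kept direction and side. Arntl in 24 minus 2 weeks of air ran from 0.62 to 0.78, Arntl in the smoke effect at 24 minus 2 weeks from -0.030 to 0.17, and Clock in smoke minus air at 2 weeks from -0.026 to 0.069. Npas2 ran from -0.066 to 0.11 in smoke minus air at 12 weeks, from -0.058 to 0.18 at 24 weeks, and from -0.067 to 0.17 in the smoke effect at 24 minus 12 weeks.

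Counts of genes past the threshold moved widely over the 15 alternatives: 0 to 567 (58 reported) in smoke minus air at 24 weeks, 175 to 906 (217) in RA and 0 to 45 (10) in FA minus 24 weeks of air, 4 to 728 (289) in RA and 6 to 1300 (438) in FA minus 24 weeks of smoke, 208 to 1074 (241) in RA and 15 to 441 (42) in FA minus 12 weeks of smoke, and 2 to 32 (3) in RA minus FA. For 2 weeks of air against untreated they ran from 57 to 664 (64), for air at 24 minus 2 weeks from 9 to 986 (27), at 12 minus 2 weeks from 1 to 240 (1) and at 24 minus 12 weeks from 0 to 66 (4). In smoke minus air they ran from 0 to 1 (0) at 2 weeks, from 0 to 2 (1) at 12 weeks and from 4 to 61 (4) averaged, and in the smoke effect from 0 to 739 (4) at 24 minus 2 weeks and from 0 to 10 (0) at 24 minus 12 weeks. No paired analysis was possible because the numbers in the labels do not pair mice across groups. Signal near background limits Npas2 and the dim probe sets.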
